A study of Homo sapiens with 8 samples.

Results

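Aldehyde dehydrogenases are the enzymes that oxidize aldehydes to carboxylic acids, and 10 genes of this family were followed after siRNA against NFE2L2 in A549 cells: ALDH1A1, ALDH1A3, ALDH1B1, ALDH1L1, ALDH2, ALDH3A1, ALDH3A2, ALDH3B1, ALDH4A1 and ALDH7A1. The members were matched by symbol to the Ensembl identifiers of the count files, and all 10 were found among 60291 gene identifiers. The human family has 19 genes in the annotation used here, and the other 9 are described after the members.

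A549 is an established human lung adenocarcinoma line with an inactivating KEAP1 mutation, which every group below shares. The authors ascribe constitutively high NRF2 protein in this line to that mutation. NRF2 activity was not measured in any group here. Each transfection used 250000 cells and RNAiMAX lipid reagent, and RNA was collected 48 h later for strand-specific sequencing of total RNA depleted of ribosomal RNA. The NFE2L2 siRNA group holds 3 libraries, 1 for each of 3 duplexes (5 nmol), and the control siRNA group holds 4 libraries, from 2 control duplexes (5 nmol) with 2 transfections each. A single mock library received the lipid reagent without siRNA. All libraries come from 1 cell line, and no duplex against NFE2L2 was repeated. The sources used here do not say whether the transfections were separate cultures, so p-values measure the spread between these transfections. The fit took the 4 control libraries as separate samples. Their spread thus mixes repeats of a duplex with different duplexes, while that of the NFE2L2 siRNA libraries is between duplexes.

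The family is defined by a shared fold with a catalytic cysteine and a bound NAD+ or NADP+, and its members differ in compartment and substrate. ALDH1A1 and ALDH1A3 are cytosolic enzymes that make retinoic acid from retinaldehyde, ALDH2 and ALDH1B1 are mitochondrial and oxidize acetaldehyde, and the ALDH3 enzymes act on fatty, aromatic and lipid-peroxidation aldehydes. NRF2, the protein encoded by NFE2L2, is a transcription factor that binds antioxidant response elements as a dimer with a small MAF protein, and KEAP1 directs its degradation. High ALDH1A1 and ALDH3A1 are familiar features of non-small cell lung cancer lines, where the activity of the enzymes is used to sort cells.

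NFE2L2, the targeted gene (ENSG00000116044.11, chromosome 2 from 178083395 to 178257484 in GRCh37, minus strand), had 1178, 2044 and 1262 reads with NFE2L2 duplexes 1, 2 and 3, against 3974 to 4227 reads in the control siRNA libraries and 4408 in the mock library. The groups did not overlap, and the log2 fold change (log2FC), given throughout as NFE2L2 siRNA over control siRNA with its standard error (SE), was −1.55 (SE 0.18, adjusted p = 0.000994, edgeR). The duplexes left 29.5%, 46.6% and 26.6% of the control mean, so duplex 2 left the most. With only 2 control samples in the fit, the value stayed between −1.59 and −1.52 and the adjusted p rose to between 0.0229 and 0.0259 (edgeR), which misses the threshold of 0.01 used below. Reads counted on genes ranged from 35525141 to 41645410 per library, and no library stood apart in depth. The keratin genes KRT8 and KRT18, markers of epithelial cells, had at least 111143 reads in every library. No gene of the 6 epithelial markers passed the threshold in edgeR, where 3 had an unadjusted p below 0.05, all higher with NFE2L2 siRNA: KRT19 (0.88, adjusted p = 0.02), EPCAM (0.80, adjusted p = 0.0624) and CDH1 (0.74, adjusted p = 0.0455), as log2FC values, and DESeq2 called KRT19 and CDH1 increased. CDH1 also differed between the control duplexes, with a log2 difference of −0.67 for control duplex 2 over control duplex 1 (adjusted p = 0.00586, edgeR). For EPCAM that difference was −0.55 (adjusted p = 0.0737, edgeR), and for KRT19 it was −0.11 (adjusted p = 0.454, edgeR). The leukocyte markers PTPRC, CD3E and LYZ, the endothelial marker VWF and the fibroblast marker DCN had at most 5 reads. CD14, a leukocyte marker with 156 to 394 reads, and COL3A1, a fibroblast marker with 35 to 149 reads, had log2FC values of 0.80 (adjusted p = 0.0287, edgeR) and 1.00 (adjusted p = 0.0359, edgeR), and DESeq2 called both increased. CDH5 (3 to 39 reads) and COL1A1 (142 to 569 reads) passed the test with log2FC values of 1.99 (adjusted p = 0.0082, edgeR) and 1.5 (adjusted p = 0.000493, edgeR). CDH5 had 18, 24 and 39 reads with NFE2L2 duplexes 1, 2 and 3, and 4 to 8 reads in the control libraries. CDH5 met the filter on low counts only through the NFE2L2 siRNA libraries, the group where it is high. Its call carries that limit, and it was not tested between the control duplexes. The part of the marker genes in the results below was not tested. In bulk RNA, fewer cells of a type and less RNA per cell cannot be told apart.

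Under control siRNA the family was dominated by a pair of genes. Levels are given as CPM, the counts per 1000000 gene counts after TMM scaling, and between genes as CPM per kilobase of exon. Per kilobase, ALDH1A1 stood at 2740 ± 84.3 (SD, n = 4), and ALDH3A1 ranged from 282 to 326 over the 4 control libraries. ALDH1B1 followed at 35.6 ± 3.06, then ALDH3A2 at 22.2 ± 2.75 and ALDH3B1 at 21.7 ± 0.689 (SD, n = 4 each). The lower levels per kilobase were 14.9 ± 3.29 for ALDH2, 5.59 ± 0.674 for ALDH4A1, 4.58 ± 0.226 for ALDH7A1 and 3.03 ± 0.223 for ALDH1A3, and ALDH1L1 came last at 0.0312 ± 0.00797 (SD, n = 4 each). The control libraries of ALDH3A2 and ALDH3B1 overlapped, and no other neighbours in this order did. With the longest transcript in place of all exons, ALDH3A2 stood ahead of ALDH1B1, and ALDH7A1 ahead of ALDH2 and ALDH4A1. Without division by length, ALDH1A1 ranked 6 and ALDH3A1 ranked 63 among the 17811 tested genes by mean control CPM.

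**Figure D1:**
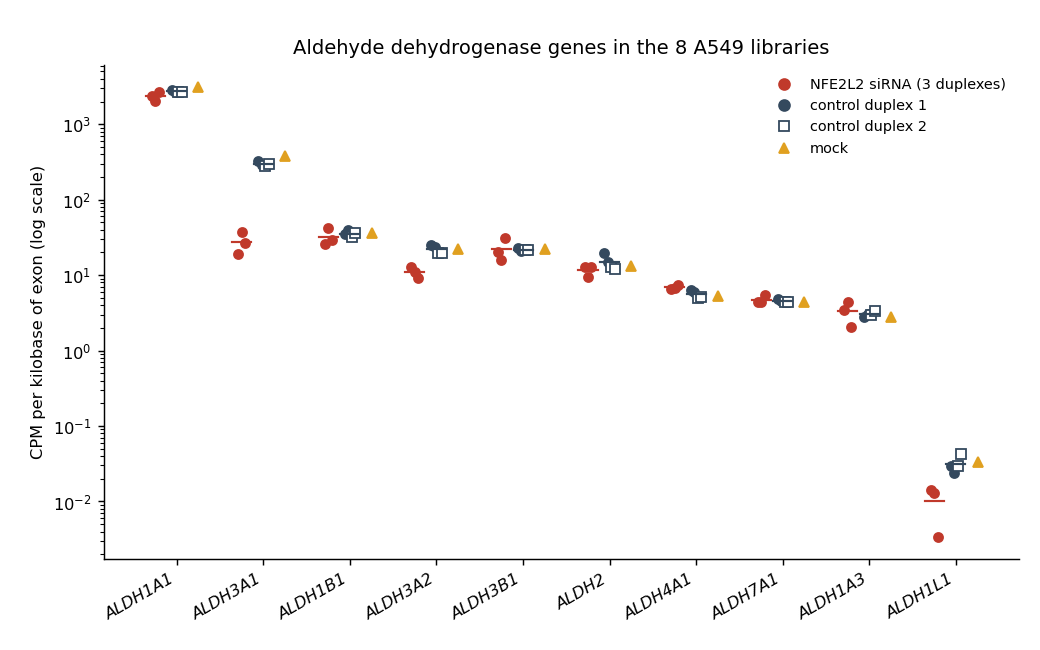
Level of each of the 10 aldehyde dehydrogenase genes in all 8 libraries, in CPM per kilobase of exon on a log axis, with 1 point per library (3 NFE2L2 siRNA, 2 for each control duplex, 1 mock) and a line at the mean of the NFE2L2 siRNA and of the control siRNA libraries. Among the members above 1 CPM per kilobase, ALDH3A1 shows the widest gap between NFE2L2 siRNA and control points and ALDH3A2 a smaller one, and ALDH1A1 sits at the top in every library.

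The first comparison asked which members depended on NFE2L2 in these cells. Of the 10 members, all of which passed the filter on low counts, ALDH3A1 and ALDH3A2 were reduced at an adjusted p below 0.01 (edgeR quasi-likelihood test) and none was increased. Over all 17811 tested genes, 1.36% were reduced and 1.39% were increased. At an unadjusted p below 0.05, 3 members were lower (ALDH3A1, ALDH3A2 and ALDH1L1) and 1 was higher (ALDH4A1), against 11.7% lower and 13.3% higher over all tested genes. DESeq2 called 2 members reduced and 0 increased, against 3.32% and 4.05% of all genes. The median log2FC of the members was −0.17, against 0.01 for all tested genes, and 6 of 10 members had a value below 0, against 8682 of 17811 genes. The NFE2L2 siRNA libraries lay entirely below the controls for 4 members (ALDH1A1, ALDH1L1, ALDH3A1 and ALDH3A2), as for 11.4% of all tested genes, and entirely above them for ALDH4A1, as for 11.9% of all tested genes. For the other 5 members the groups overlapped. The ALDH1A1 separation holds after TMM scaling. As a share of gene counts alone, ALDH1A1 with NFE2L2 duplex 3 lay inside the control range. ALDH1L1 passed the filter on low counts only through the control libraries.

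**Figure D2:**
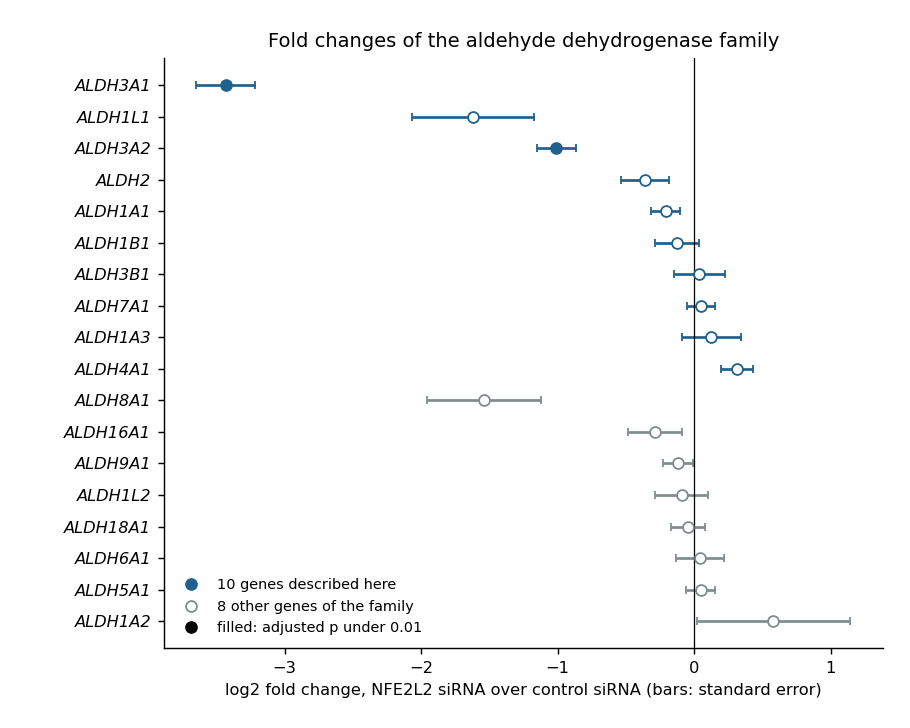
Log2 fold change (log2FC) of each tested aldehyde dehydrogenase gene, NFE2L2 siRNA (n = 3) over control siRNA (n = 4), with bars of 1 SE on either side, for the 10 members (blue) and for 8 other genes of the family (grey). The filled points, ALDH3A1 at −3.43 and ALDH3A2 at −1.01, passed the threshold of 0.01, and no gene to the right of 0 did.

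ALDH3A1 encodes the dimeric aldehyde dehydrogenase known as an abundant protein of the cornea, which oxidizes aromatic and medium-chain aldehydes. The gene (ENSG00000108602.13) lies on chromosome 17 from 19641297 to 19652256 in GRCh37, on the minus strand. Its level was 73.8, 146 and 104 CPM with NFE2L2 duplexes 1, 2 and 3, and 1264, 1132, 1094 and 1164 CPM in the control libraries. The mock library had 1479 CPM, above all controls. The highest NFE2L2 siRNA library was thus far below the lowest control library. Mean levels of 108.0 ± 36.4 CPM (SD, n = 3) and 1164 ± 72.8 CPM (SD, n = 4) gave a log2FC of −3.43 (SE 0.22, adjusted p = 2.21e-05, edgeR), a reduction of 10.8-fold to 9.28% of control. By log2FC ALDH3A1 ranked 24 from the bottom of the 17811 tested genes. Under the 18 alternative settings the log2FC ranged from −3.72 to −3.22 and the adjusted p did not exceed 0.00209.

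ALDH3A2 encodes the fatty aldehyde dehydrogenase of the endoplasmic reticulum, the enzyme that is deficient in Sjögren-Larsson syndrome. The gene (ENSG00000072210.14) lies on chromosome 17 from 19551449 to 19589073, on the plus strand. With NFE2L2 duplexes 1, 2 and 3 its level was 199, 170 and 140 CPM. The control libraries had 390 and 362 CPM with control duplex 1 and 306 and 305 CPM with control duplex 2, and the mock library had 339 CPM, inside that range. The groups did not overlap. The means of 169 ± 29.2 CPM (SD, n = 3) and 341 ± 42.2 CPM (SD, n = 4) gave a log2FC of −1.01 (SE 0.14, adjusted p = 0.00279, edgeR), a reduction of 2.01-fold. The call was lost at 0.01 in 5 of 18 alternative settings, all with fewer samples: against control duplex 1 alone (−1.16, adjusted p = 0.0158) or control duplex 2 alone (−0.85, adjusted p = 0.0531), with both libraries of a control duplex added up (−1.01, adjusted p = 0.0423), without NFE2L2 duplex 3 (−0.89, adjusted p = 0.011) and without the second transfection of control duplex 1 (−0.98, adjusted p = 0.0147), all with edgeR.

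The sequences just before a RefSeq start site, up to the first annotated exon base, are shown for ALDH3A2, the reduced member that the RefSeq promoter table (GRCh38.p14) covers, and for ALDH1A1, the most abundant member. Both were placed in GRCh37 by exact match, and are written 5′ to 3′ on the strand of the gene. ALDH3A2 covers chr17:19551199-19551448 on the plus strand, and ALDH1A1 covers chr9:75567973-75568219 on the minus strand. The ALDH3A2 stretch ends where the annotated gene begins, while the ALDH1A1 stretch lies inside the annotated gene, 127139 bp downstream of its 5′ end, because the annotation also holds transcripts that start farther upstream. Capitals mark matches to the motifs searched, which in these stretches is 1 CCAAT box upstream of ALDH1A1, from −74 to −70 relative to the start site.
ALDH3A2: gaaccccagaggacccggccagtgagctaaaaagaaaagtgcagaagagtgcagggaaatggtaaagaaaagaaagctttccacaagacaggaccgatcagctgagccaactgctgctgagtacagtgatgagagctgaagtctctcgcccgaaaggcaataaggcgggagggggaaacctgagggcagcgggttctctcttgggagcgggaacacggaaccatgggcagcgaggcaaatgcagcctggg
ALDH1A1: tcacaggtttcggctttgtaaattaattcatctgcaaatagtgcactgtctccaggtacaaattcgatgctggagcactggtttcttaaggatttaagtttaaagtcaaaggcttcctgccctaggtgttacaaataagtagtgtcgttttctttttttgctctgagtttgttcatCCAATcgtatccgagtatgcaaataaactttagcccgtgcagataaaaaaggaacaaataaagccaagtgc
The table gives 12 windows for 8 of the 10 members, each with 250 bases before and 50 bases after a start site, and ALDH2 and ALDH3A1 are not among them. The core of the antioxidant response element was searched as TGACNNNGC on both strands and was found in 0 of the 12 windows, against 13.3% of 35116 windows for all genes. The AP-1 site TGACTCA, which the core also matches when GC follows it, was in 0 of the 12 windows and in 4.95% of all windows. Also searched were CCAAT, present in 34.6% of all windows, TATAAA in 11.5% and GGGCGG in 45%. ALDH3A2 has a second window, downstream of the printed stretch, with 4 GGGCGG matches and 1 CCAAT match. ALDH1A3 and ALDH1L1 have 6 and 4 GGGCGG matches in 1 window each. A match is a description of the letters, and elements outside these windows were not examined.

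ALDH3A1 and ALDH3A2 are neighbours on chromosome 17, with their ends 52223 bp apart and facing each other. The genes within 150 kb of the pair were therefore looked at, a choice made after the members' values were known. Of 23 annotated genes, 7 were tested, among them 5 coding genes. SLC47A2, a transporter of organic cations that lies between the pair and overlaps the end of ALDH3A2 on the opposite strand, had 2, 0 and 1 reads in the NFE2L2 siRNA libraries and 10, 10, 10 and 12 in the controls, and it was reduced (log2FC −3.32, SE 0.59, adjusted p = 0.00911, edgeR). These counts are small, and the libraries were counted by strand. SLC47A2 met the filter of 10 reads in any library only through the control libraries, the group where it is high, so its call carries that limit. SLC47A1, its paralog beyond ALDH3A2, had 874 to 1055 reads against 1216 to 1566 and a log2FC of −0.63 (adjusted p = 0.0144, edgeR), short of the threshold. ULK2, an autophagy kinase on the other side of ALDH3A1, had a log2FC of 0.17 (adjusted p = 0.434, edgeR). The remaining 2 tested genes, SNORA59B and a lncRNA, had at most 13 reads in any library and adjusted p-values of 0.495 and 0.996 (edgeR).

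**Figure D3:**
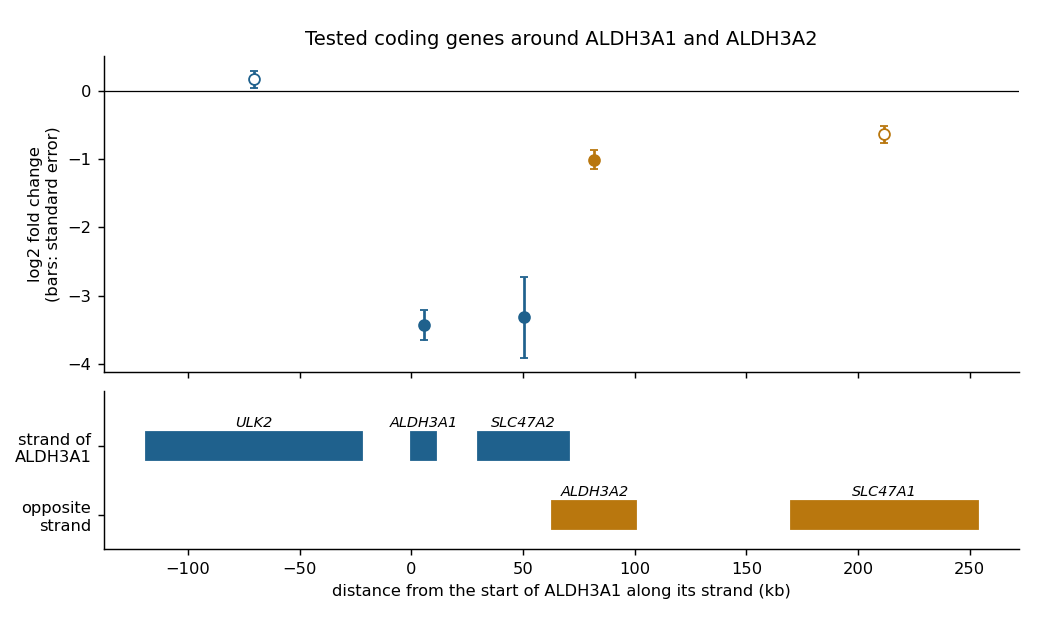
Top, log2 fold change (log2FC, NFE2L2 siRNA over control siRNA, bars of 1 SE on either side) of the 5 tested coding genes around ALDH3A1, each at the middle of its gene; bottom, the extent of the genes by strand, in kilobases from the ALDH3A1 start along its strand. ALDH3A1, SLC47A2 and ALDH3A2 (filled) passed the threshold of 0.01, while SLC47A1 at −0.63 and ULK2 at 0.17 (open) did not. SLC47A2 met the filter on low counts only through the control libraries.

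ALDH1A1 had the highest RNA level of the retinaldehyde dehydrogenase genes ALDH1A1, ALDH1A2 and ALDH1A3 in these cells, and enzyme activity was not measured. The gene (ENSG00000165092.8) spans chromosome 9 from 75515587 to 75695358, minus strand. Its level was 6821, 5823 and 7554 CPM with NFE2L2 duplexes 1, 2 and 3, and 8137, 7634, 7649 and 7700 CPM in the control libraries. The mock library had 8726 CPM, the highest of all. After TMM scaling, all NFE2L2 siRNA libraries lay below all controls, with duplex 3 at 97.1% of the control mean. The log2FC of −0.21 (SE 0.10, adjusted p = 0.251, edgeR) did not pass the threshold, and 2 standard errors on either side span −0.42 to 0.00. It stayed between −0.30 and −0.13 when libraries were left out in turn.

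ALDH1A3, the other member that makes retinoic acid, lies on chromosome 15 from 101417919 to 101456831 (plus strand, ENSG00000184254.12). It had 18.1, 23.8 and 11 CPM with NFE2L2 duplexes 1, 2 and 3 and 14.7 to 17.6 CPM in the control libraries. Duplexes 1 and 2 were above the control range and duplex 3 was below it, so that the mean log2FC of 0.13 (SE 0.22, adjusted p = 0.766, edgeR) hides values on both sides.

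The mitochondrial members ALDH2 and ALDH1B1 did not pass the test. ALDH2 (ENSG00000111275.8, chromosome 12 from 112204691 to 112255336, plus strand) had 124, 90.8 and 124 CPM with NFE2L2 duplexes 1, 2 and 3, 189 and 147 CPM with control duplex 1, and 125 and 119 CPM with control duplex 2. The NFE2L2 siRNA libraries thus overlapped those of control duplex 2 and lay below those of control duplex 1. The log2FC was −0.36 (SE 0.17, adjusted p = 0.236, edgeR), and over all alternatives it ran from −0.58 against control duplex 1 alone to −0.11 against control duplex 2 alone. ALDH1B1 (ENSG00000137124.6, chromosome 9 from 38392699 to 38398658, plus strand) had 79.6, 132 and 92.3 CPM with NFE2L2 duplexes 1, 2 and 3 and 99.2 to 122 CPM in the controls, with a log2FC of −0.13 (SE 0.16, adjusted p = 0.668, edgeR). Duplex 2 was above the control range and the other duplexes were below it.

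ALDH3B1, which oxidizes medium- and long-chain aldehydes (ENSG00000006534.11, chromosome 11 from 67776048 to 67796749, plus strand), had 134, 105 and 204 CPM with NFE2L2 duplexes 1, 2 and 3 against 141 to 150 CPM in the controls. Duplex 3 was above and the other duplexes below the control range, and the log2FC was 0.04 (SE 0.19, adjusted p = 0.923, edgeR). Over the alternatives the value ran from −0.27, without NFE2L2 duplex 3, to 0.22.

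The members of amino acid and folate metabolism were expressed at low to moderate levels. ALDH4A1, the mitochondrial enzyme that completes proline breakdown to glutamate (ENSG00000159423.12, chromosome 1 from 19197924 to 19229218, minus strand), had 24.1, 24.8 and 26.7 CPM with NFE2L2 duplexes 1, 2 and 3 and 18.1 to 23.2 CPM in the controls. It was the only member with every NFE2L2 siRNA library above every control, but the log2FC of 0.31 (SE 0.12, adjusted p = 0.131, edgeR) did not pass. ALDH7A1, an enzyme of lysine breakdown (ENSG00000164904.11, chromosome 5 from 125866892 to 125931054, minus strand), had 78.6, 79.2 and 97 CPM against 79.1 to 87.8 CPM, and a log2FC of 0.05 (SE 0.10, adjusted p = 0.80, edgeR). Its groups overlapped.

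ALDH1L1, the cytosolic formyltetrahydrofolate dehydrogenase (ENSG00000144908.9, chromosome 3 from 125822405 to 125916837, minus strand), was close to the limit of detection. It had 7, 7 and 2 reads with NFE2L2 duplexes 1, 2 and 3, against 15, 12, 15 and 21 reads in the controls and 18 in the mock library. All NFE2L2 siRNA libraries were below all controls, and the log2FC was −1.62 (SE 0.45, adjusted p = 0.0545, edgeR). Over the alternatives the adjusted p ranged from 0.0264 to 0.236, so the threshold was not reached in any of them at 0.01.

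The 3 duplexes against NFE2L2 did not order the members alike. The lowest level was with duplex 1 for 4 members, with duplex 2 for 3 and with duplex 3 for 3. ALDH3A1 stood at 6.35%, 12.6% and 8.93% of its control mean with duplexes 1, 2 and 3, so its highest level was with duplex 2, which also left the most NFE2L2. ALDH3A2 stood at 58.3%, 49.7% and 41.1%, lowest with duplex 3. ALDH1A1 stood at 87.7%, 74.8% and 97.1%, lowest with duplex 2. Values on opposite sides of the control mean were found for ALDH1A3 (112%, 147% and 68.0%), ALDH1B1 (71.8%, 119% and 83.2%), ALDH3B1 (93.0%, 73.1% and 142%) and ALDH7A1 (95.9%, 96.5% and 118%). Each duplex was transfected once, so the differences between duplexes have no replicate check.

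**Figure D4:**
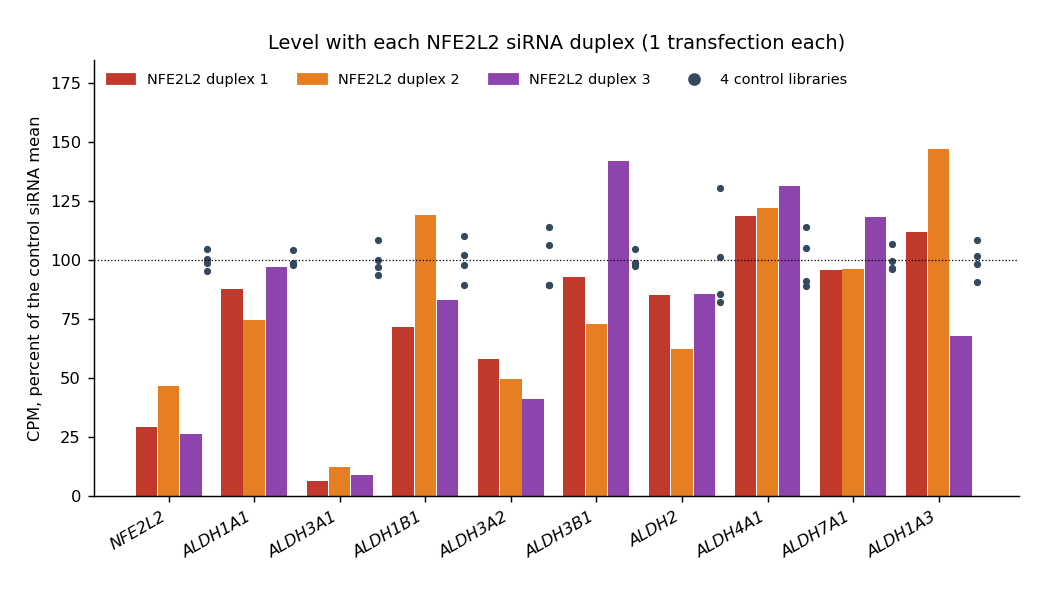
Bars give the CPM with each NFE2L2 duplex (1 transfection each) as a percent of the mean of the 4 control siRNA libraries, on a linear axis from 0, for NFE2L2 and 9 members, and dark points give the single control libraries. ALDH1L1, with at most 7 reads per NFE2L2 siRNA library, is left out. The bars of ALDH3A1 and ALDH3A2 lie below the control points for each duplex, and those of ALDH1A3, ALDH1B1 and ALDH3B1 lie on both sides of 100%.

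The control group itself allowed a comparison of control duplex 2 with control duplex 1, with 2 transfections each. No member passed 0.01 in edgeR, while 3.28% of 17261 tested genes did. At an unadjusted p below 0.05, 3 members were lower with control duplex 2, as were 13.4% of all tested genes. DESeq2 called 2 of them, ALDH3A2 and ALDH2, and 3.05% of all genes with an adjusted p were lower by the same rule. The log2 difference was −0.46 for ALDH2 (SE 0.10, adjusted p = 0.0189, edgeR), −0.29 for ALDH3A2 (SE 0.07, adjusted p = 0.0203, edgeR) and −0.28 for ALDH4A1 (SE 0.08, adjusted p = 0.0487, edgeR). For ALDH3A1 it was −0.08 (SE 0.08, adjusted p = 0.57, edgeR). The number of genes past the threshold here ranged from 0 to 2056 when a control library was left out, and that of members from 0 to 3.

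The mock library was a single library and was not tested. It lay inside the range of the control siRNA libraries for 7 members, above it for ALDH1A1 and ALDH3A1 and below it for ALDH7A1, and among all tested genes 45% lay outside that range. The log2 ratio of mock to the control mean was 0.35 for ALDH3A1 and 0.17 for ALDH1A1.

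Summed over the 10 members, the level was 7551, 6595 and 8354 CPM with NFE2L2 duplexes 1, 2 and 3, and 10365, 9659, 9528 and 9660 CPM in the controls. The mock library had 11045 CPM. All NFE2L2 siRNA sums lay below all control sums. In shares of all gene counts, the members took 0.671% to 0.854% after NFE2L2 siRNA and 0.949% to 0.991% in the controls. ALDH1A1 and ALDH3A1 together made up 90.5% to 91.7% of the sum after NFE2L2 siRNA and 90.7% to 91.8% in the controls. This pooled share hides a change within the pair. Mean ALDH3A1 was 108 CPM after NFE2L2 siRNA and 1164 CPM in the controls. Mean ALDH1A1 was 6733 and 7780 CPM, a difference that did not pass the threshold. The other 8 members summed to 626 to 696 CPM after NFE2L2 siRNA and 785 to 964 CPM in the controls. The widest difference among these 8 was that of ALDH3A2, with means of 169 and 341 CPM. ALDH2 followed with 113 and 145 CPM and did not pass the threshold. The means of ALDH1B1 and ALDH1L1 were also lower after NFE2L2 siRNA, and those of ALDH1A3, ALDH3B1, ALDH4A1 and ALDH7A1 were higher.

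Of the other 9 genes of the family, 8 were tested, and 0 were reduced and 0 increased in edgeR. Over all tested genes these shares were 1.36% and 1.39%, and the median log2FC of the 8 genes was −0.07. At an unadjusted p below 0.05 there was 1, ALDH8A1, which was lower, as were 11.7% of all tested genes. DESeq2 called it reduced, as it did 3.32% of all genes. ALDH8A1, an enzyme of tryptophan breakdown, had 18, 6 and 11 reads in the NFE2L2 siRNA libraries and 20, 31, 47 and 32 in the controls, with a log2FC of −1.54 (SE 0.42, adjusted p = 0.0511, edgeR). Its NFE2L2 siRNA libraries lay entirely below the controls, as for 11.4% of all tested genes, and the mock library had 25 reads. The enzymes with more reads had smaller values: −0.29 for ALDH16A1, −0.12 for ALDH9A1 (carnitine synthesis), −0.09 for ALDH1L2 (the mitochondrial counterpart of ALDH1L1), −0.04 for ALDH18A1 (proline synthesis), 0.04 for ALDH6A1 (valine breakdown) and 0.05 for ALDH5A1 (breakdown of the transmitter GABA), with adjusted p-values from 0.397 to 0.907 (edgeR). ALDH1A2, the retinaldehyde dehydrogenase of the embryo, had 2 to 13 reads and a log2FC of 0.58 (adjusted p = 0.567, edgeR), and ALDH3B2 had at most 4 reads and was not tested.

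Retinaldehyde is made from retinol before ALDH1A1 and ALDH1A3 act, and retinoic acid is bound, degraded and sensed after them. Of 25 genes of this pathway, 21 were tested and 0 were reduced and 0 increased in edgeR, with a median log2FC of 0.02. At an unadjusted p below 0.05, 5 were lower and 5 higher (11.7% and 13.3% of all tested genes), and DESeq2 called 0 reduced and 1 increased (3.32% and 4.05% of all genes). FABP5, a fatty acid-binding protein that also carries retinoic acid, had a log2FC of −0.55 (SE 0.15, adjusted p = 0.0495, edgeR), and CYP26B1, which degrades retinoic acid, one of −0.49 (SE 0.14, adjusted p = 0.0535, edgeR).

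Aldehydes are also made or reduced by alcohol dehydrogenases, aldo-keto reductases and carbonyl reductases. Of 22 such genes, 20 were tested, 9 were reduced and 0 increased in edgeR, against 1.36% and 1.39% of all tested genes. The median log2FC of the list was −0.72. At an unadjusted p below 0.05, 10 were lower and 2 were higher (ADH1C and CYP2E1), against 11.7% and 13.3% of all tested genes. DESeq2 called 10 reduced and 0 increased, against 3.32% and 4.05% of all genes. The aldo-keto reductases AKR1B10 (−3.62, adjusted p = 1.22e-05), AKR1B15 (−2.70, adjusted p = 0.00025), AKR1C1 (−2.30, adjusted p = 2.21e-05), AKR1C2 (−1.74, adjusted p = 2.21e-05), AKR1C3 (−1.69, adjusted p = 0.000201) and AKR1B1 (−0.78, adjusted p = 0.00754) were reduced, all values being log2FC values from edgeR. So were the prostaglandin reductase PTGR1 (−2.75, adjusted p = 4.72e-06) and the carbonyl reductases CBR3 (−1.41, adjusted p = 0.000618) and CBR1 (−1.29, adjusted p = 0.00185), on the same scale. CBR1 was also lower with control duplex 2 than with control duplex 1 (log2 difference −0.46, adjusted p = 0.00201, edgeR). It was the only 1 of 20 genes of the list past 0.01 there in edgeR, against 3.28% of all tested genes. DESeq2 called CBR1 and AKR1B10 lower with control duplex 2, as were 3.05% of all genes with an adjusted p. It called AKR1C3 higher. At an unadjusted p below 0.05, 8 were lower with control duplex 2, as were 13.4% of all tested genes. On the higher side there were 2, for which the share over all tested genes was not computed. The AKR1B and AKR1C genes are close paralogs, so reads shared between copies make their single values uncertain. Against control duplex 2 alone the number reduced was 5.

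**Figure D5:**
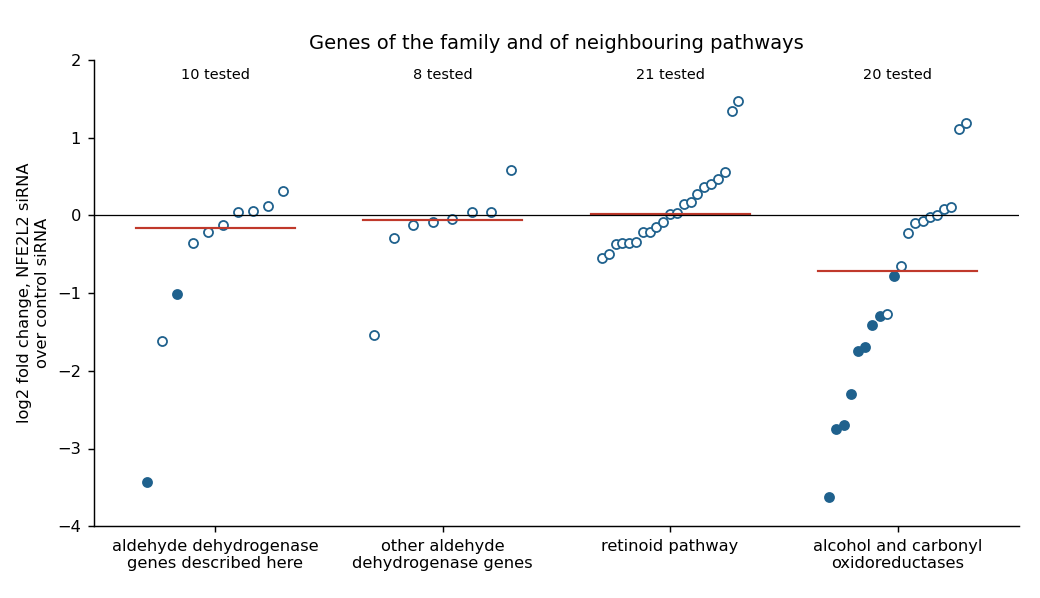
Log2 fold change (log2FC) (NFE2L2 siRNA over control siRNA) of every tested gene in 4 lists, with 1 point per gene and a line at the median of each list: the 10 members, the other family genes, the retinoid pathway genes, and the alcohol and carbonyl oxidoreductase genes. Filled points passed the threshold of 0.01, which 2 members, 0 other family genes, 0 retinoid genes and 9 oxidoreductase genes did. At that threshold 1.36% of all tested genes were reduced and 1.39% increased.

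Over the 8 libraries, the genes whose log2(CPM + 0.5) followed ALDH3A1 most closely were TALDO1, an enzyme of the pentose phosphate pathway, TREX1, a DNA exonuclease, and NQO1, a quinone reductase, each with a Pearson r of 0.997. Among 13342 genes with a mean of at least 50 reads, 193 had an r over 0.95. All 3 named genes were reduced by NFE2L2 siRNA, with log2FC values of −1.54 for TALDO1 (adjusted p = 7.38e-05, edgeR), −1.03 for TREX1 (adjusted p = 0.00136, edgeR) and −2.19 for NQO1 (adjusted p = 1.94e-05, edgeR). For ALDH1A1 the closest genes were EPRS1, a tRNA synthetase, with an r of 0.994, DCAF17 with 0.981 and FAIM with 0.975, and 17 genes had an r over 0.95. None of these 3 passed the test (adjusted p-values from 0.178 to 0.401, edgeR). The correlations are descriptions over libraries that share their groups. These genes were chosen by their likeness over the same libraries, so whether they pass the test follows largely from that choice. Their fold changes and adjusted p-values are therefore no separate support for the results of ALDH3A1 or ALDH1A1.

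Genes that overlap members or resemble them were few in reads. ALDH1A3-AS1, antisense to ALDH1A3, had 190 to 259 reads per library and a log2FC of −0.02 (adjusted p = 0.933, edgeR). The antisense gene at ALDH3A1 (ENSG00000264785.1) had 0 reads in every library, ALDH1L1-AS1 likewise had 0, and ALDH1L1-AS2 had 1 read in all. The pseudogene ALDH7A1P1 had 0 to 7 reads per library, and ALDH7A1P2, ALDH7A1P3 and ALDH7A1P4 had 0. Reads that aligned to more than 1 place were not counted on any gene.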

How the data were processed

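Strand-specific total RNA of A549 cells was sequenced in 8 libraries, and groups follow the sample titles. The authors aligned reads to hg19 with HISAT (0.1.6 in the submitters' processing notes) and deposited counts: the number of reads that HTSeq (0.6.0) assigned by strand to each gene of GENCODE v19, without normalization. Unassigned classes were left out, and 60.3% to 65.6% of entries per library were on genes.

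Names, positions and exon lengths were taken from GENCODE v44 on GRCh37, which holds 55538 of the 60291 identifiers. PECAM1 had no matching identifier. The fit used edgeR 4.0.16 in R 4.3.3 (TMM, glmQLFit, glmQLFTest, prior count 0.125, two-sided) on the 3 NFE2L2 siRNA and 4 control siRNA libraries, after a filter of 10 reads or more in any of them. P-values were adjusted over the whole table (Benjamini-Hochberg, threshold 0.01). The SE was computed as |log2FC| divided by the root of F. CPM values used TMM factors (0.956 to 1.02) over all 8 libraries. The mock library was described, not tested.

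Alternatives were DESeq2 1.42.0, other scalings, filters on low counts, 0.05 as the threshold, a robust fit, different control groups and omission of each library. Those on the gene lists were added after seeing the data. The members and lists were chosen with earlier results of these data known. Named genes were the whole family, NFE2L2, genes past the threshold in the retinoid and oxidoreductase lists (or the 3 of lowest adjusted p, of which 1 retinoid gene is not reported here), the 3 genes most like ALDH3A1 and ALDH1A1, and overlapping genes and pseudogenes; the neighbours SLC47A1, ULK2 and SNORA59B and the marker genes given with values were chosen after their values were seen. Protein sequences were not used here.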

Additional observations from a re-analysis of the deposited data

Results flagged for a closer look

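ALDH1A1 in the first transfection of control duplex 1 was set apart from the other control libraries, at 8137 CPM against 7634 to 7700 CPM, a gap of 0.868 of the range of the group. ALDH3B1 in the same library stood at 150 CPM against 141 to 142 CPM, a gap of 0.863 of the range. These are the 2 gaps above the critical value of Dixon's test at 95% among 19 genes examined (the 18 tested family genes and NFE2L2), where chance gives about 1 in 20. Without that library the log2 fold change of neither gene passed the threshold.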

How the results depend on the processing

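No paired analysis was possible because replicate numbers of NFE2L2 siRNA name duplexes and those of the control libraries name repeats of a control duplex. ALDH3A1 stayed reduced in all 18 alternatives, and no member was called increased in any. The cause of the shifts below was not tested. Members reduced numbered 2, and 1 against control duplex 1 alone or control duplex 2 alone, where fewer libraries were used. The number was also 1 with the summed duplexes, where all libraries of the fit were kept and each control duplex counted as 1 sample. With 1 library left out the number was 1 to 2, being 1 without NFE2L2 duplex 3 or the second transfection of control duplex 1. Genes past the threshold numbered 491 (49.5% reduced), 1314 with DESeq2, 1019 with at least 1 read in any library, 1456 at 0.05, 120 against control duplex 1 alone (80.0% reduced), 59 against control duplex 2 alone (89.8% reduced), 78 with summed duplexes (96.2% reduced), 772 with the mock library added, and 163 to 915 with 1 library left out, being 915 without NFE2L2 duplex 2, 238 without NFE2L2 duplex 3, 277 and 163 without the first or second transfection of control duplex 1, and 198 and 221 without those of control duplex 2. NFE2L2 missed 0.01 with 2 control samples (−1.52, −1.59 and −1.54, adjusted p from 0.0229 to 0.0259, edgeR). Between control duplexes, the 566 genes became 4 with at least 1 read in any library, 1736 at 0.05, and 0 to 2056 with 1 library left out (1340 and 2056 without either library of duplex 1, 0 without either of duplex 2), where the lone library was taken to vary like the other duplex; the 0 members became 2 with DESeq2, 3 at 0.05 and 0 to 3 with 1 library left out. The other family genes reduced became 1 with DESeq2 or at least 1 read. In the retinoid list 1 was reduced at 0.05 and 0 to 1 with 1 library left out, and 1 increased with DESeq2, at least 1 read or 0.05 and 0 to 1 with 1 library left out. In the oxidoreductase list 5 were reduced against control duplex 2 alone and 1 was increased at 0.05. Signs that turned, none past the threshold, were against control duplex 1 alone ALDH7A1 (−0.0074), ALDH1L2 (0.15), ALDH5A1 (−0.066) and ALDH6A1 (−0.067), against control duplex 2 alone ALDH9A1 (0.031) and ALDH18A1 (0.15), and with 1 library left out ALDH1A3 (−0.17 to 0.38), ALDH1B1 (−0.38 to 0.019), ALDH3B1 (−0.27 to 0.22), ALDH7A1 (−0.055 to 0.10), ALDH1L2 (−0.29 to 0.028), ALDH6A1 (−0.14 to 0.23) and ALDH18A1 (−0.13 to 0.046). Depth limits ALDH1L1, ALDH8A1, ALDH1A2 and SLC47A2, each with at most 47 reads per library.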
